A study of Danio rerio with 5 samples.

Results

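The long arm of zebrafish chromosome 4 was examined through its expressed genes other than the miR-430 genes. They were taken as the rows of the deposited gene table that lie on chromosome 4 with a start above 27 Mb on the build D_rerio_Sep_2014, have a name that does not begin with mir, and average at least 10 counts over the 5 libraries. Of 775 rows on this stretch, 46 carried a mir name and 486 of the other 729 fell short of the minimum, which left 243 genes of the 22656 in the whole table. The genes were thus selected on their mean count over all libraries, so which genes are listed depends on their level at either stage: 180 averaged at least 10 counts at both stages, 50 at post-MBT only and 13 at MBT only. At the edge of the minimum, LOC100535649, LOC100535697 and LOC100536348 had a mean of 10.0 counts, while LOC100331575 and LOC103910538 had 9.8 and LOC100150619 had 9.6 and were not taken.

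The later stage was post-MBT, 5.3 hours post-fertilisation (hpf) or 30% epiboly, with 2 libraries, and it was set against MBT, 4 hpf or sphere stage, with 3 libraries. MBT stands for the mid-blastula transition, when the embryo's own genome takes over from the RNA that the egg supplied. All embryos were of the Tübingen strain, grown at the same temperature with no agent or mutation named, and were freed of chorion and yolk before total RNA was taken from whole embryos. Random-primed cDNA was tagged by a transposase, and the deposited counts carry no strand. The labels do not say whether the libraries of a stage are of separate clutches. A p-value here therefore speaks of the spread among 5 libraries, part of which may be technical.

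As background, the long arm of this chromosome is heterochromatic and late-replicating in zebrafish. It is poor in single-copy genes and rich in tandem families, above all C2H2 zinc-finger genes and NLR genes, along with repeated small RNA genes, and it holds the miR-430 cluster that is transcribed at the onset of zygotic transcription. C2H2 zinc-finger proteins bind DNA in a sequence-specific way, and in vertebrates many of them have lineage-specific copies. Because families of this kind hold near-identical copies, and the treatment of reads with several matches is not stated in the sources used, the value of any 1 copy is uncertain.

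Depth was 3701401 and 3204831 counts in post-MBT A and B, and 2488983, 3641226 and 2781303 counts in MBT A, B and C. A count of 0 in 1 library allows up to 3 counts, for counting error only. Per 1000000 counts of the library this is 0.811 to 0.936 in post-MBT libraries and 0.824 to 1.21 in MBT libraries. Values in CPM below are instead counts per 1000000 counts of tested genes after trimmed mean (TMM) scaling. The stage labels were checked on marker genes: 5 of 5 zygotic genes rose and 5 of 5 maternal genes fell at post-MBT. Of 10 markers of differentiated tissue, 5 were in the table, and their counts together were 7 to 8 in post-MBT libraries and 4 to 12 in MBT libraries. Over all 12007 genes tested, the median log2 fold change, post-MBT over MBT, was -0.04.

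The long-arm genes were mostly higher after the transition. With edgeR's quasi-likelihood test at a Benjamini-Hochberg adjusted p under 0.05, 145 of the 243 genes rose at post-MBT, which is 59.7%, against 31.0% of all genes tested and 30.5% of the genes elsewhere with the same minimum. A further 39 fell, which is 16.0%, against 31.8% of all genes tested and 32.7% of those elsewhere, and 59 did not pass the test. The median log2 fold change was 1.13, with quartiles of -0.16 and 1.75. For 154 of the genes both post-MBT libraries lay above all MBT libraries, against 36.3% of all genes tested, and for 47 both lay below, against 37.6%. Of the 243 genes, 130 (53.5%) rose by at least 2-fold, against 16.0% of all genes tested, and 28 (11.5%) fell by at least 2-fold, against 18.6% of all genes tested.

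The level shows the same in each library. The median long-arm gene stood at 10.9 and 10.8 CPM in post-MBT A and B, against 5.41, 5.74 and 5.92 CPM in MBT A, B and C, and the stages did not overlap. The genes elsewhere in the genome with the same minimum of 10 counts had a median of 17.4 and 17.1 CPM in post-MBT libraries, against 18.8, 19.0 and 18.5 CPM in MBT libraries. Per kilobase of exonic length, the median level of long-arm genes was 6.57 CPM per kb at post-MBT and 3.43 CPM per kb at MBT. Elsewhere it was 7.24 CPM per kb at post-MBT and 8.00 CPM per kb at MBT, so the long-arm median came nearer to that of other genes after the transition.

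**Figure D1:**
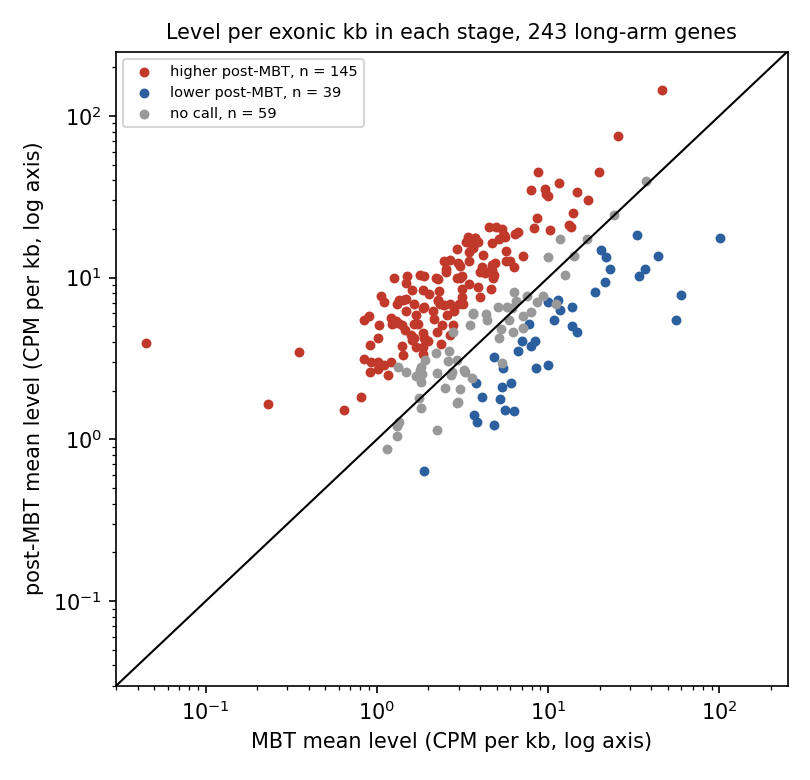
Level of each of the 243 long-arm genes in CPM per kb of exonic length, MBT on the horizontal axis and post-MBT on the vertical axis, both logarithmic, with points coloured by the call. The genes that rose lie above the diagonal at mostly low MBT levels, while several of the genes that fell stand among the highest MBT levels. The calls come from the same counts as the levels, so part of this follows from the grouping.

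The genes that rose were mostly low at MBT, and those that fell were mostly higher there. This follows in part from the grouping, since the calls, the minimum and the levels come from the same counts. The median gene among those that rose stood at 13.0 CPM at post-MBT, against 3.93 CPM at MBT. Among those that fell it stood at 7.41 CPM at post-MBT, against 17.3 CPM at MBT, and among those with no call at 7.96 CPM at post-MBT and 7.46 CPM at MBT. The genes with a mean of 10 to 50 counts included 120 of 190 that rose and 21 that fell, whereas among the 53 with a mean of at least 50 counts 25 rose and 18 fell. With library totals 96 of the 190 rose and 35 fell, while of the 53 genes 23 rose and 24 fell and their median log2 fold change was -0.21, against 0.20 with TMM scaling. Elsewhere in the genome 1083 of 4874 genes with a mean of 10 to 50 counts rose and 1453 fell, and of 6064 with a mean of at least 50 counts 2252 rose and 2126 fell. At 10 to 50 counts 63.2% thus rose and 11.1% fell on the arm, against 22.2% and 29.8% elsewhere. At a mean of at least 50 counts 47.2% rose on the arm, against 37.1% elsewhere. The share that fell there, 34.0%, was near the 35.1% elsewhere, so a smaller share of falls was not seen in this range. With library totals 740 rose and 2147 fell in the lower range elsewhere, and 1121 rose and 3061 fell in the higher one.

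All 243 genes together held 0.753% of the counts on nuclear genes in post-MBT A (95% Wilson interval 0.741 to 0.766%) and 0.753% in post-MBT B (0.740 to 0.767%). In MBT A, B and C the share was 0.547% (0.534 to 0.560%), 0.619% (0.608 to 0.629%) and 0.613% (0.600 to 0.626%). Both post-MBT shares lay above all MBT shares. These intervals cover counting error only and not the spread between libraries, since those of MBT A and MBT B do not overlap. Of all counts, mitochondrial ones included, the share was 0.367% and 0.365% in post-MBT A and B. In MBT A, B and C it was 0.292%, 0.353% and 0.303%. The stages differed little in this share when only genes with a mean of at least 50 counts, or only genes above 30 Mb, were summed. The 486 rows under the minimum summed to only 1478 and 1301 counts in post-MBT A and B, and to 610, 1096 and 710 counts in MBT A, B and C. In 96 of those rows every MBT library had 0 counts. In whole embryos, fewer cells that express a gene and less RNA per cell cannot be told apart.

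Normalisation bears on the size of this difference. The trimmed mean (TMM) scaling used here assumes that most genes do not change, while scaling by library totals moved the median of all tested genes by -0.41 on the log2 scale. With library totals, 119 long-arm genes rose and 59 fell with a median of 0.72, while over all genes 2173 rose and 5574 fell with a median of -0.46. With a mean of at least 10 counts asked of each stage, a condition added after seeing the data, 98 of 180 genes rose and 31 fell, with a median of 0.86. Genes elsewhere under this condition are not given here, so these shares cannot be set against them.

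The share of genes that rose on the long arm was above that of each other chromosome. On the part of chromosome 4 up to 27 Mb, 94 of 260 genes with the same minimum rose, 63 fell and the median log2 fold change was 0.14, and with library totals 51 rose and 100 fell. On the other chromosomes together, 3241 of 10678 rose, 3516 fell and the median was -0.06, and with library totals 1810 rose and 5108 fell. Among the 24 other chromosomes, the share that rose ran between 23.4% on chromosome 24 and 38.4% on chromosome 22, and the median between -0.27 and 0.23. These are descriptions, since the region was chosen with results of these data known.

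**Figure D2:**
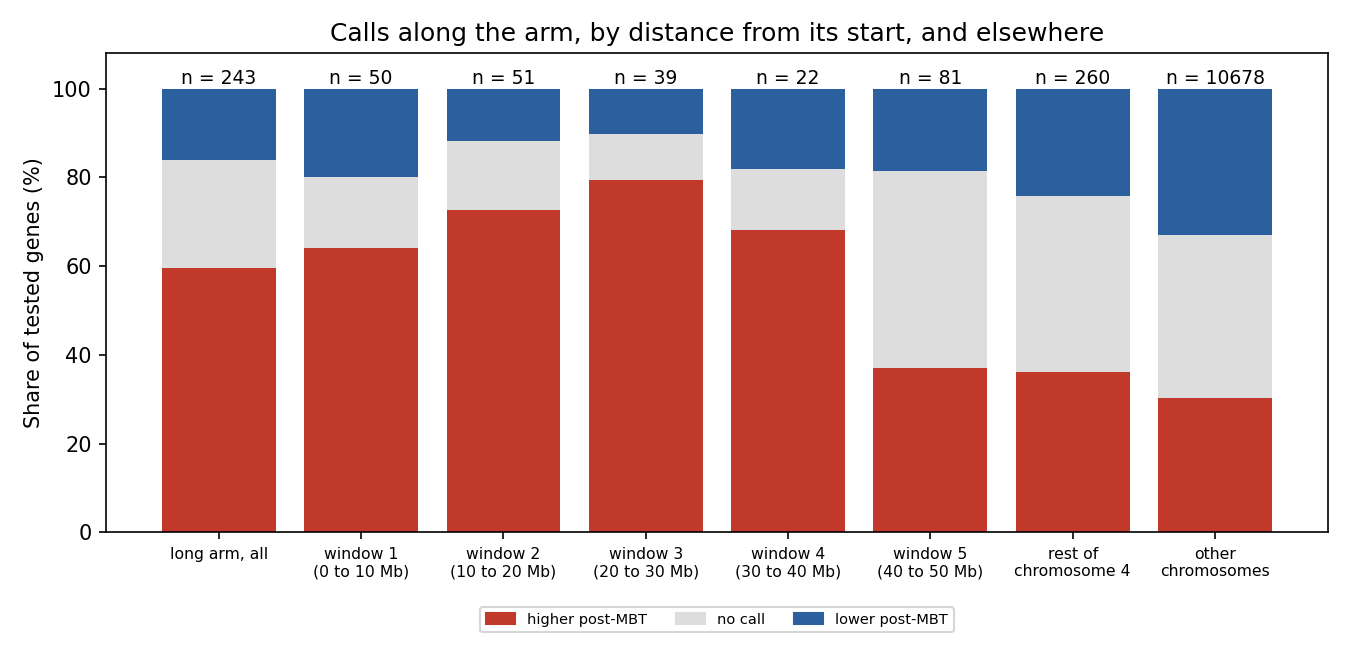
Share of tested genes that were higher at post-MBT, had no call or were lower at post-MBT, as stacked bars from 0 to 100%, for the whole long arm, its 5 windows of 10 Mb, the rest of chromosome 4 and the other chromosomes, with windows marked by their distance from 27 Mb. Each of the 4 windows up to 67 Mb has a larger share of genes that rose than the window from 67 to 77 Mb, in which 36 of 81 genes had no call.

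Along the arm, the 4 windows up to 67 Mb had higher medians than the window at the end of the chromosome. The differences between windows were not tested. Of all genes tested, for comparison, 31.0% rose and 31.8% fell. In the window from 27 to 37 Mb 32 of 50 genes rose and 10 fell, with a median log2 fold change of 1.31. From 37 to 47 Mb 37 of 51 rose and 6 fell, with a median of 1.37, and from 47 to 57 Mb 31 of 39 rose and 4 fell, with a median of 1.31. From 57 to 67 Mb the table listed 115 rows without a mir name but only 22 met the minimum. Of those 22, 15 rose and 4 fell, with a median of 1.32.

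The last window, from 67 to 77 Mb, held 81 genes, of which 30 rose, 15 fell and 36 had no call. Its median log2 fold change was 0.11. In this window 37.04% thus rose and 18.5% fell, against 31.0% and 31.8% of all genes tested. The share that rose was near the 36.2% of chromosome 4 up to 27 Mb, where 24.2% fell. The direction of the last window depended on the scaling, since library totals gave 23 that rose, 30 that fell and a median of -0.30. With library totals the medians of the other windows stayed between 0.89 and 0.95. The summed counts of the window were 3914 and 3412 in post-MBT A and B, and 2824, 4432 and 3060 in MBT A, B and C, so the stages overlapped before scaling. Without this window, a choice made after seeing the data, 115 of 162 genes rose and 24 fell, with a median of 1.31. Genes that rose and genes that fell were interspersed. The longest runs of neighbouring genes with none that fell were 3 runs of 20 genes each. Their gene starts lay between 40.6 and 44.7 Mb, where 16 rose, between 45.8 and 49.4 Mb, where 18 rose, and between 52.6 and 57 Mb, where 18 rose.

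**Figure D3:**
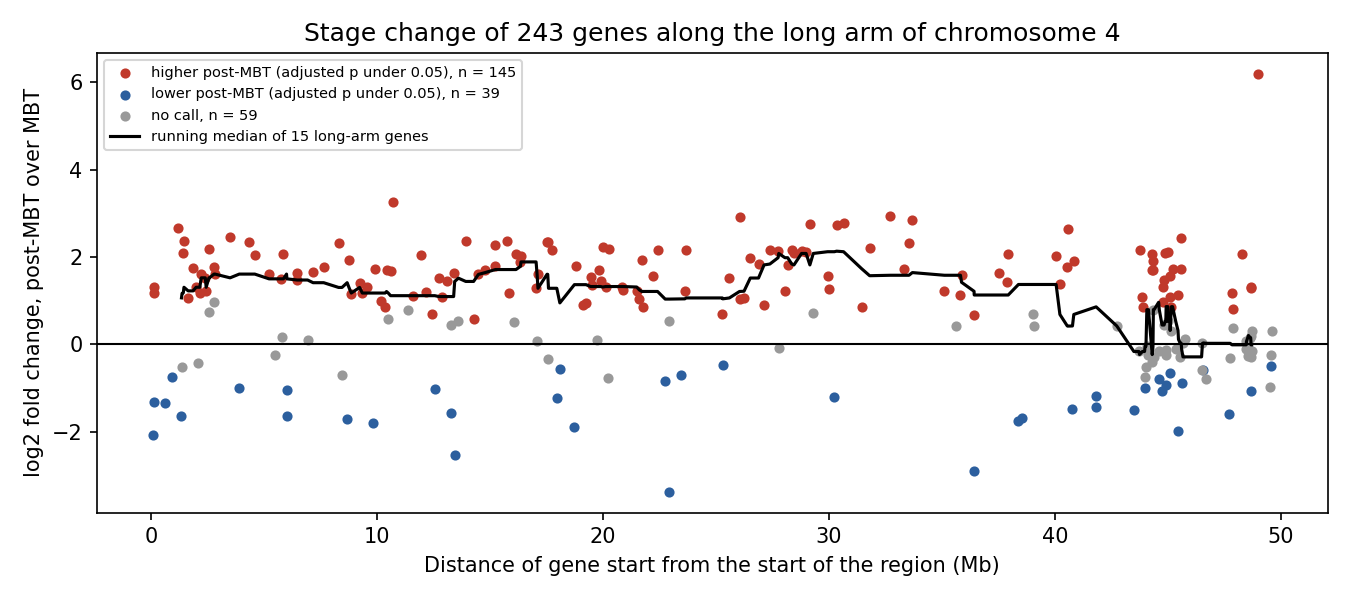
Log2 fold change, post-MBT over MBT, of each of the 243 genes against the distance of its start from the start of the region in Mb, coloured by the call, with a running median over 15 genes. The running median lies above 0 over most of the arm and comes down near its end, and genes that fell are scattered along the whole length.

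Genes known by ordinary symbols sat at both ends of the region and were called in both directions. Of 19 such genes, 8 lay between 27 and 37 Mb and 11 between 67 and 77 Mb, with none between. Of these 19, 4 rose, 8 fell and 7 had no call, and the median log2 fold change was -0.25. With library totals 4 rose and 12 fell, with a median of -0.67. Elsewhere in the genome 2535 of 8565 genes with a symbol rose and 2843 fell, and with library totals 1325 rose and 4207 fell. Among the clone and locus names, 112 of 166 genes with a LOC name rose and 22 fell, and 22 of 41 zgc genes rose and 4 fell. Elsewhere 394 of 1101 LOC genes rose and 305 fell, and 159 of 556 zgc genes rose and 194 fell. With library totals 17 zgc genes of the arm rose and 9 fell, whereas elsewhere 291 LOC genes rose and 420 fell, and 93 zgc genes rose and 265 fell.

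At the start of the region, neighbouring genes with ordinary symbols changed in opposite directions. Celsr1a (28202324 to 28346069, minus strand), an atypical cadherin of planar cell polarity, had 97.2 and 94.8 CPM in post-MBT A and B, against 14.8, 13.3 and 17.8 CPM in MBT A, B and C. The stages lay far apart, and celsr1a rose by 2.67 ± 0.14 on the log2 scale (SE; edgeR adjusted p = 1.96e-28). Zbed4 (27123109 to 27140407, minus strand), a BED-type zinc-finger protein, had 228 and 217 CPM in post-MBT A and B, against 78.7, 113 and 101 CPM in MBT A, B and C, and rose by 1.17 ± 0.10 (edgeR adjusted p = 2.77e-18). Its neighbour brd1a, a bromodomain protein of histone acetyltransferase complexes, had 71.5 and 80.3 CPM in post-MBT libraries, against 24.5, 28.0 and 39.0 CPM in MBT libraries, and rose by 1.32 ± 0.14.

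Other genes with ordinary symbols at this end fell. Trmu (28349358 to 28364250, minus strand), which modifies mitochondrial transfer RNAs and lies directly after celsr1a, had 8.37 and 8.55 CPM in post-MBT A and B, against 26.3, 23.9 and 30.3 CPM in MBT A, B and C. The stages did not overlap, and trmu fell by 1.65 ± 0.23 on the log2 scale (edgeR adjusted p = 2.54e-09). Creld2, an endoplasmic reticulum protein induced under folding stress in mammals, had 1.29 and 3.34 CPM in post-MBT libraries, against 11.2, 8.72 and 9.41 CPM in MBT libraries, and fell by 2.08 ± 0.40. Tbc1d22a, whose TBC domain is that of Rab GTPase-activating proteins, had 6.76 and 6.69 CPM in post-MBT libraries, against 14.4, 15.4 and 21.9 CPM in MBT libraries, and fell by 1.34 ± 0.27.

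The other 5 falls among symbol genes were called by edgeR but not by DESeq2's Wald test. Alg12, a mannosyltransferase that builds the precursor of N-glycans, had a log2 fold change of -1.31 (edgeR adjusted p = 0.00985), and cerk, the ceramide kinase, one of -0.75 (adjusted p = 0.0234). Without post-MBT B alg12 had an adjusted p of 0.140 and cerk one of 0.324, and without MBT B cerk had one of 0.0967. At the far end of the arm ryroxd1, now pyroxd1 and an oxidoreductase by name, had a log2 fold change of -1.51 (adjusted p = 0.0101, and 0.118 without post-MBT B). Large, a glycosyltransferase that acts on dystroglycan, had -0.59 (adjusted p = 0.0309), and arfgap3, which activates the GTPase of ARF1, had -0.50 (adjusted p = 0.0468). The calls of both were lost when any 1 of several libraries was left out, namely MBT B, MBT C, post-MBT A or post-MBT B for large and MBT A, post-MBT A or post-MBT B for arfgap3.

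The other symbol genes at the far end did not pass the test. Trim24, a bromodomain coregulator of transcription, had 38.3 and 37.9 CPM in post-MBT A and B, against 36.8, 38.3 and 36.2 CPM in MBT A, B and C, and its libraries overlapped. Nup50, of the nuclear pore, had 43.5 and 39.8 CPM in post-MBT libraries, against 38.6, 42.7 and 41.1 CPM in MBT libraries, also overlapping. The log2 fold changes of these genes were 0.03 each and their standard errors 0.15 and 0.14. Terfa, a telomere-binding protein, had a log2 fold change of 0.31, rab3ip, which activates a Rab GTPase, -0.04, myrfl -0.23, pacsin2, a membrane-bending protein, -0.25 and ttll1, a tubulin-modifying enzyme, -0.99. With library totals 4 of these 7 passed the test as lower at post-MBT, namely trim24, nup50, pacsin2 and ttll1, and ttll1 also passed without MBT A.

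One gene at the far end was an exception. Slco1d1 (76004965 to 76047519, minus strand), a transporter of organic anions, had 31 and 28 counts in post-MBT A and B, against 0, 0 and 1 counts in MBT A, B and C. It rose (edgeR adjusted p = 4.97e-13). With its summed counts divided by the TMM-scaled counts of tested genes, as for CPM, the ratio of post-MBT over MBT was 102. The exact interval of 17.6 to 4088 rests on the single count at MBT. Slco1d1 met the minimum of 10 counts only through post-MBT.

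Between these ends no gene had an ordinary symbol, while clone-named and zinc-finger genes lay both between and at the ends. The largest rises below come from the whole arm. The largest rise by the naming rule, among genes with a mean of at least 20 counts, was that of zgc:174690 (59721243 to 59767334, minus strand). It had 19.0 and 15.2 CPM in post-MBT A and B, against 2.16, 2.29 and 2.09 CPM in MBT A, B and C, and rose by 2.95 ± 0.32 on the log2 scale (edgeR adjusted p = 6.92e-13). The naming rule asked that the stages not overlap. With only 6 to 10 counts at MBT, zgc:174690 met the minimum through post-MBT. It overlaps 1 other row of at most 500000 bp, so its counts may hold reads of another gene. The others of the 10 largest rises were LOC103910061 (2.86), zgc:173710 (2.79), LOC103910799 (2.75), celsr1a (2.67), zgc:173716 (2.47), LOC796097 (2.38), si:dkey-20l4.2 (2.37), LOC100537428 (2.37) and zgc:173720 (2.34), each a log2 fold change. Of these, si:dkey-20l4.2 spans 1085238 bp and overlaps 15 other rows, so its counts may hold reads of other genes. Apart from celsr1a and LOC100537428, these other genes also averaged under 20 counts at MBT and met the minimum through post-MBT.

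**Figure D4:**
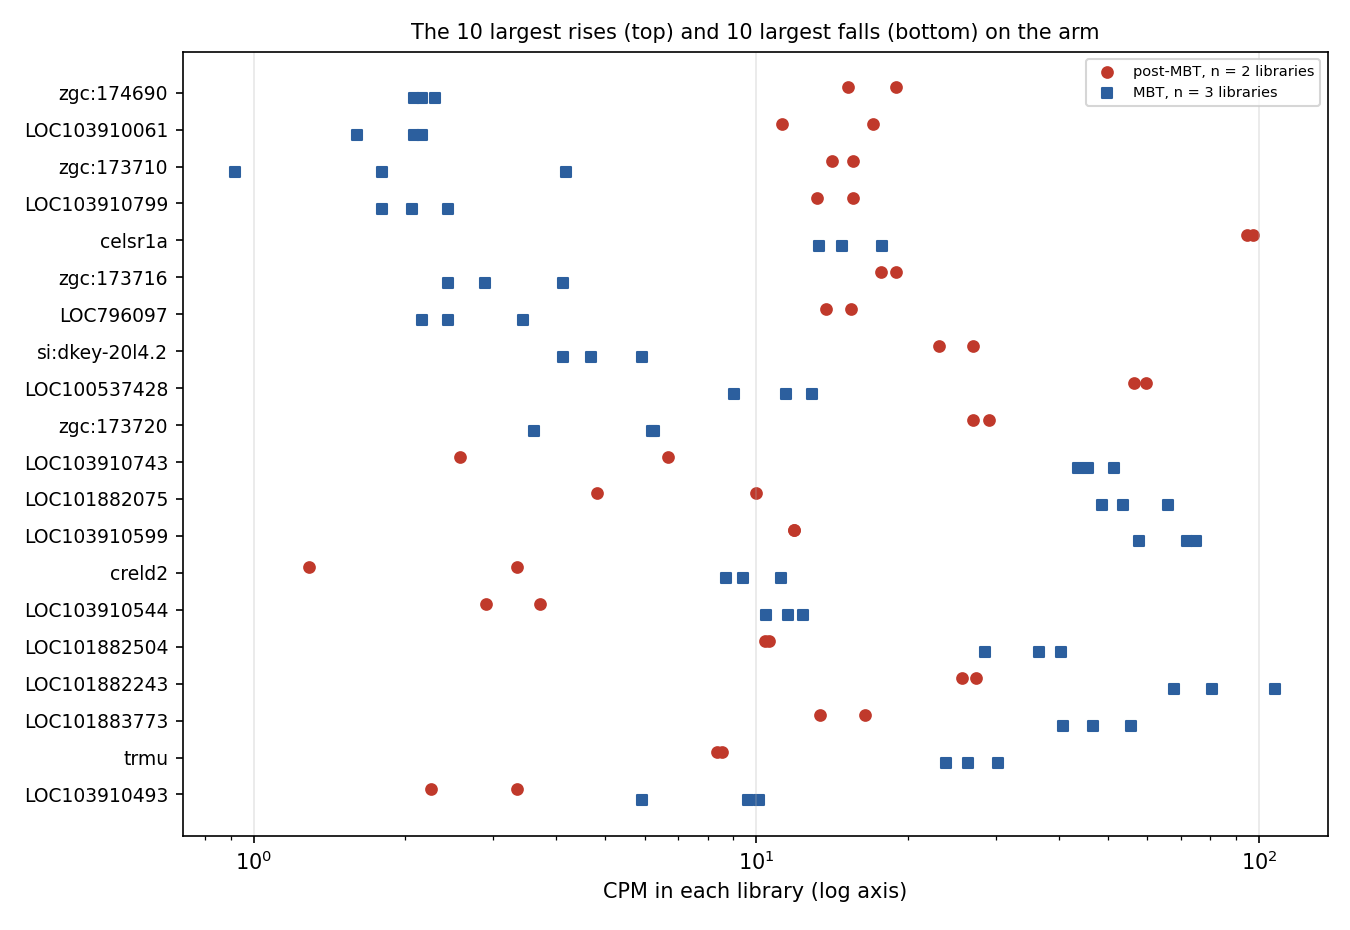
CPM in each library, on a logarithmic axis, of the 10 genes with the largest rise and the 10 with the largest fall among those named by the rule, with post-MBT and MBT libraries as separate points. In each of the 20 genes the post-MBT points lie apart from the MBT points, as the naming rule required.

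The 3 largest falls were in short genes of high MBT level. LOC103910743 (49924676 to 49925659, minus strand) had 2.58 and 6.69 CPM in post-MBT A and B, against 43.7, 45.7 and 51.6 CPM in MBT A, B and C, and fell by 3.37 ± 0.24 on the log2 scale (edgeR adjusted p = 1.29e-21). LOC101882075 (63422540 to 63423628, plus strand) had 9.98 and 4.83 CPM in post-MBT A and B, against 48.7, 65.8 and 53.6 CPM in MBT A, B and C, and fell by 2.90 ± 0.21. LOC103910599 (40439333 to 40440010, minus strand), which has a single exon, had 11.9 CPM in both post-MBT libraries, against 57.7, 74.8 and 71.8 CPM in MBT A, B and C, and fell by 2.52 ± 0.17. In none of these genes did the stages overlap, as the naming rule required. The files and the gene tables used here give no function for them. The others of the 10 largest falls were creld2, LOC103910544 (-1.80), LOC101882504 (-1.76), LOC101882243 (-1.71), LOC101883773 (-1.69), trmu and LOC103910493 (-1.63). Of these, LOC101882243 overlaps 3 other rows of at most 500000 bp, so its counts may hold reads of other genes. LOC103910743, creld2, LOC103910544 and LOC103910493 averaged under 20 counts at post-MBT and met the minimum of 20 through MBT.

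The most abundant long-arm genes per kilobase included genes of both directions. LOC561361 (29223251 to 29224684, plus strand), a single-exon gene, had 207 and 207 CPM in post-MBT A and B, against 56.3, 74.3 and 69.3 CPM in MBT A, B and C. It rose by 1.62 ± 0.10 on the log2 scale (edgeR adjusted p = 1.49e-25), and its level was 144 CPM per kb at post-MBT and 46.5 CPM per kb at MBT. LOC103910599 and LOC101882075, which fell, also stood among the 5 highest mean levels per kb. LOC100001242 had 72.4 and 78.0 CPM in post-MBT libraries, against 20.2, 29.4 and 26.8 CPM in MBT libraries, and rose by 1.53 ± 0.14. The remaining gene of the 5, zgc:154045, now rab21, a GTPase of endosomal traffic, had 53.1 and 45.7 CPM in post-MBT libraries and 42.6, 39.7 and 56.8 CPM in MBT libraries, which overlapped.

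With TMM scaling, genes now named as zinc-finger genes were called in 1 direction. Of the 243 genes, 134 were found in the RefSeq gene table, all as protein-coding genes, and 19 of them have a current znf symbol. Of these 19, 13 rose, none fell and 6 had no call, with a median log2 fold change of 1.74. The share that rose, 68.4%, was near the 59.7% of all 243 long-arm genes, of which 16.0% fell. At an unadjusted edgeR p under 0.05 the number of the 19 that were lower was 0, and DESeq2 called 11 of them higher and 0 lower. Elsewhere in the genome, 107 genes with a current znf symbol were tested, of which 40 rose and 36 fell, with a median of 0.18. With library totals 11 of the 19 rose and 1 fell, against 24 that rose and 47 that fell elsewhere.

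Among the 19 genes with a znf symbol, zgc:174697, now znf1041 (28429541 to 28434905, plus strand), had the highest CPM at post-MBT. It had 83.4 and 76.2 CPM in post-MBT A and B, against 15.2, 22.9 and 16.0 CPM in MBT A, B and C, and rose by 2.10 ± 0.15 on the log2 scale (edgeR adjusted p = 7.02e-22). LOC100537428, now znf1067, is a single-exon gene close by (28459186 to 28460469, plus strand) and had 59.6 and 56.5 CPM in post-MBT libraries, against 9.02, 11.5 and 12.9 CPM in MBT libraries, with a rise of 2.37 ± 0.17. Per kb of exonic length LOC100537428 stood higher, at 45.2 CPM per kb at post-MBT and 8.67 CPM per kb at MBT, against 34.9 CPM per kb at post-MBT and 7.90 CPM per kb at MBT for zgc:174697. The post-MBT and MBT libraries lay far apart in both genes. Other znf genes that rose included zgc:173614, now znf1141 (2.17 ± 0.20), LOC100330526, now znf1113 (2.23 ± 0.27), and LOC567317, now znf569l (1.99 ± 0.25), each a log2 fold change with its SE.

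Among the 13, LOC103910561, now znf977, rose by 1.12 ± 0.32 and LOC101884948, now znf1040, by 0.90 ± 0.27. Both lost the call with library totals (adjusted p = 0.0560 for LOC103910561 and 0.126 for LOC101884948) and with DESeq2's Wald test (adjusted p = 0.0593 and 0.0669 in the same order). Leaving out post-MBT B gave LOC103910561 an adjusted p of 0.120. The 6 znf genes without a call ran between a log2 fold change of -0.24 for zgc:113381, now znf1015, and 0.96 for LOC103910469, now znf1119. By position, 5 of 6 znf genes rose between 27 and 37 Mb, 4 of 5 between 37 and 47 Mb, 2 of 2 between 47 and 57 Mb and 1 of 2 between 57 and 67 Mb, whereas 1 of 4 rose between 67 and 77 Mb.

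**Figure D5:**
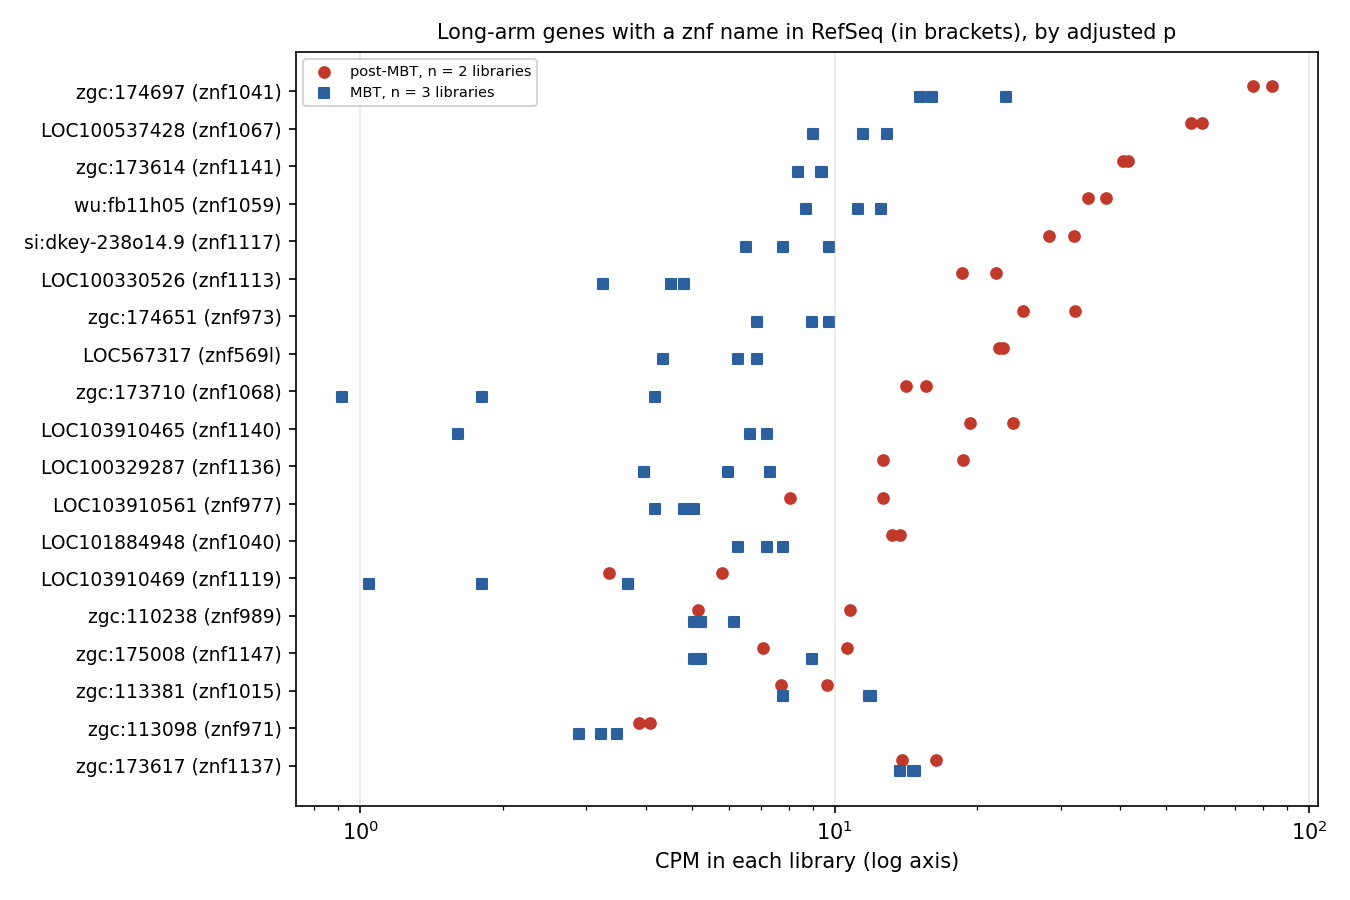
CPM in each library, on a logarithmic axis, of the 19 long-arm genes with a current znf symbol, with post-MBT and MBT libraries as separate points. In the 13 genes that rose the post-MBT points lie above the MBT points, and among the other 6 the points mostly overlap.

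The long-arm genes also differed from genes elsewhere in length and exon number, which the selection did not use. They were shorter than genes elsewhere with the same minimum, with a median exonic length of 1728 bp against 2500 bp, and 25 of 243 (10.3%) had a single exon, against 1.95% elsewhere. Of the 25 single-exon genes 19 rose and 2 fell, and of the 218 with several exons 126 rose and 37 fell (102 and 56 with library totals). Elsewhere in the genome 149 of 213 single-exon genes rose and 25 fell, with a median log2 fold change of 1.04, so a high share that rose was not confined to single-exon genes of the arm. By strand, 75 of 116 genes on the plus strand and 70 of 127 on the minus strand rose, while 14 and 25 fell. Of all 243 genes 59.7% rose and 16.0% fell, against 31.0% and 31.8% of all genes tested. With library totals 63 rose and 22 fell on the plus strand, and 56 rose and 37 fell on the minus strand. Only 33.3% of the rows on the arm without a mir name met the minimum, against 50.2% of the rows elsewhere.

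No RefSeq match was found for 109 genes, of which 71 rose and 21 fell, and of the 115 matched genes without a znf symbol 61 rose and 18 fell. With library totals the matched genes without a znf symbol split into 50 that rose and 34 that fell. Altogether 36 genes overlap another row of at most 500000 bp, and of these 36 genes 20 rose and 6 fell (16 and 10 with library totals). Overlaps with wider rows, such as si:dkey-20l4.2, were not counted, so more genes overlap than these 36. The shares among the 36, 55.6% and 16.7%, were near the 59.7% and 16.0% of all 243 long-arm genes. Of all genes tested 31.0% rose and 31.8% fell. The overlap is of gene spans on either strand, so the exons need not overlap. Where exons do overlap, reads of the genes cannot be told apart by strand, since the counts carry none.

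The authors' deposited table, made with DESeq2, had 115 long-arm genes higher at post-MBT at an adjusted p under 0.05, against 13.5% of all rows, and 26 lower, against 11.6%. Among genes elsewhere with the same minimum the authors' deposited table had 23.7% higher and 22.7% lower. The same table sets the exons of each gene against each other between the stages. There 6 long-arm genes passed a Bonferroni-corrected p of 0.05, against 0.393% of all rows and 0.758% of the genes elsewhere with the same minimum in the authors' deposited table: LOC100537731, LOC101885416, LOC100536422, LOC100330873, LOC101882613 and LOC101884860. They are named because they passed it. All but LOC100537731 overlap another row of at most 500000 bp. Since the counts carry no strand, their exon differences may hold reads of other genes. The largest exon differences in the authors' deposited table were a log2 value of -3.57 for LOC100536422 and one of -2.90 for LOC101882613, and the direction of these values is not stated.

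Genes that build or remove heterochromatin were taken as a list, since the arm is heterochromatic. Of 22 listed genes 21 were in the table and 20 were tested. Of these 8 rose and 7 fell, shares near the 31.0% and 31.8% of all genes tested, and the median log2 fold change was 0.02. With library totals 4 rose and 11 fell. Atrx, a chromatin remodeller of repeat-rich regions, averaged 462 ± 4.90 CPM at post-MBT (SD, n = 2) and 207 ± 5.52 CPM at MBT (SD, n = 3), and rose by 1.16 ± 0.07 on the log2 scale (SE). Cbx5, a heterochromatin protein that binds methylated H3K9, rose by 0.71 ± 0.07. Setdb1a, an H3K9 methyltransferase, fell by 1.05 ± 0.09, and kdm4c, an H3K9 demethylase, fell by 1.47 ± 0.12. Whether any of these genes bears on the long-arm genes was not tested.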

How the data were processed

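Total RNA of 2 post-MBT and 3 MBT zebrafish libraries (5 ng each) was random-primed, tagmented and put through 10 PCR cycles, per the labels' protocols. Novoalign 2.8 and DESeq2 are the tools in the submitters' processing notes. The deposited values are counts of alignments that overlap a gene by at least 1 base, with a read pair counted once, per the file headers. Per the file headers the table adds the authors' own log2 ratio of MBT over post-MBT, a score of -10 times the log10 of its adjusted p, and an exon comparison with a log2 difference and a score of the same form. Left out were 10 other columns of per-library values. Count columns carry a stage and an index that no source links to a sample, so libraries are called A, B and C within a stage, without pairing.

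From the counts, edgeR 4.0.16 in R 4.3.3 was fitted over all genes (filterByExpr with a minimum of 10 counts, TMM factors, robust quasi-likelihood test, Benjamini-Hochberg adjustment), and checked on simulated counts. Fold changes are post-MBT over MBT on the log2 scale, and their SE is the fold change divided by the square root of the F statistic. CPM divides counts by the count of tested genes times the TMM factor. DESeq2 1.42.0 was an alternative. Gene starts are given from 1. Overlaps were counted with rows of at most 500000 bp. Gene names were matched to RefSeq through a table of another assembly (GRCz12tu), used for names only. The classes planned from protein sequence were replaced by current znf symbols, since protein sequences were not used here. Named genes are the 10 largest rises and the 10 largest falls among called genes with a mean of at least 20 counts and no overlap of stages, the 5 highest levels per kb, and the genes with an ordinary symbol; the znf genes were added as a class. Mean filters, scalings, filters and left-out libraries were varied. The region, its genes and the gene lists were chosen with earlier results of these data known.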

Additional observations from a re-analysis of the deposited data

How the results depend on the processing

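No paired analysis was possible because no source links the index in the names of the count columns to the replicate numbers of the samples. Of 243 long-arm genes, 109 rose and 24 fell in all of 11 refits of the model. How many of all genes tested kept their call in every refit is not given here, so these counts cannot be set against them. Leaving out 1 MBT library at a time gave 143 to 145 long-arm genes that rose and 36 to 41 that fell. Their median log2 fold change was 1.03 to 1.16. Over all genes 3501 to 3647 rose and 3588 to 3743 fell in the same refits. Leaving out a post-MBT library leaves 1 in that stage, so only the long-arm median is given, 1.12 without post-MBT A and 1.15 without post-MBT B. With library totals, over all genes 2173 rose, while 59 long-arm genes fell and their median was 0.72. With the same scaling 51 genes rose and 100 fell on chromosome 4 up to 27 Mb, 1810 rose on other chromosomes, and 30 fell in the window from 67 to 77 Mb. With DESeq2's Wald test, over all genes 3001 rose and 2539 fell, while 113 long-arm genes rose and 25 fell. In the window from 27 to 37 Mb 27 rose and 6 fell with this test. From 47 to 57 Mb 22 rose and 2 fell, and from 67 to 77 Mb 23 rose and 9 fell. With a mean of at least 50 counts 25 genes rose, 18 fell and the median was 0.20. Below 67 Mb 24 fell and the median was 1.31, and with at least 10 counts in each stage the median was 0.86 (both chosen after seeing the data). The share of all counts, 0.366% at post-MBT and 0.316% at MBT, was 0.753% and 0.593% of nuclear counts. The share of all counts was 0.388% at post-MBT with a mean of at least 5 counts. With at least 50 it was 0.199% at post-MBT and 0.197% at MBT, and above 30 Mb 0.285% at post-MBT and 0.271% at MBT. The cause of these shifts was not tested. Among the named genes, direction changed only for genes without a call: with library totals zgc:154045 had -0.30, terfa -0.11, trim24 -0.38, nup50 -0.39, zgc:175008 -0.0039, zgc:113098 -0.10 and zgc:173617 -0.34, and with no filter trim24 had -0.0073 and nup50 -0.016. With 1 library left out zgc:154045 ran between -0.019 and 0.28, nup50 between -0.042 and 0.093, rab3ip between -0.15 and 0.13, zgc:110238 between -0.065 and 0.99, and zgc:173617 between -0.043 and 0.19. Of the other values tried, 568 kept direction and call, 25 lost the call and 5 gained it. At a median of 24.4 counts a gene, depth limits the genes near the minimum.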
